A study of Mus musculus with 342 samples.

Results

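Liver RNA was examined for 76 genes of the mitochondrial respiratory chain and ATP synthase, out of 9093 genes named on the arrays. The members are all genes whose symbol on the array platform begins with Nduf, Sdha to Sdhd, Uqcr, Cox4 to Cox8 or Atp5. Probe sets that name several genes were left out, and where a gene had several, the one brightest on average across the arrays was used. The rule used no measured response. The 76 genes comprise 62 subunits of the 5 complexes, 11 assembly factors that the name pattern also takes in (7 of complex I and 4 of complex II) and 3 tissue isoforms of complex IV. The subunits number 30 in complex I, 4 in complex II, 6 in complex III, 9 in complex IV and 13 in complex V.

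The respiratory chain lies in the inner mitochondrial membrane. Complex I takes electrons from NADH and complex II takes them from succinate, ubiquinone carries them to complex III, and cytochrome c carries them on to complex IV, which reduces oxygen. Complexes I, III and IV pump protons, and complex V, the ATP synthase, lets them flow back to make ATP. Hepatocytes are rich in mitochondria and depend on this chain for fatty acid oxidation, gluconeogenesis and urea synthesis. Some subunits of complexes I, III, IV and V are encoded by mitochondrial DNA and do not match the name pattern.

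The mice were males of Collaborative Cross lines, which are inbred mouse lines that each carry a different mix of several founder genomes. They were about 8 to 10 weeks old and received a single oral gavage of vehicle (0.5% methylcellulose in water, recorded as dose 0) or of TAK-875 at 600 mg/kg, and liver was taken 24 hours later. TAK-875 (fasiglifam) activates the fatty acid receptor Ffar1, and its development against type 2 diabetes was stopped over liver injury. The 342 arrays, 1 mouse each, form 171 study pairs of 1 vehicle and 1 TAK-875 mouse treated together, over 44 lines (39 lines with 4 pairs and 5 with 3). A further line that the labels count (45 in all) is not analysed here. No knockout, transgene or second agent is named in the labels.

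The values are log2 RMA expression values per probe set. The number of arrays limits their precision, and no read depth applies. Array medians over the 9093 genes ran from 5.70 to 6.50, and 19 arrays (13 from TAK-875 and 6 from vehicle mice) had a median correlation under 0.95 with the other arrays of their line and dose. The hepatocyte markers averaged 12.37 to 12.95 in vehicle arrays and 12.51 to 13.01 in TAK-875 arrays. Of the other cell types' markers, 7 of 8 Kupffer cell genes were lower with TAK-875 (median response -0.24 over the list), as were 4 of 6 endothelial, 2 of 5 stellate cell and 2 of 3 red blood cell genes, while 2 of 6 hepatocyte genes were higher and 1 lower. By the same test, described below, 11.9% of all genes were lower and 15.3% higher. The mean of the Kupffer list ran from 6.26 to 8.72 in vehicle arrays and from 5.55 to 8.64 in TAK-875 arrays. Across the 44 lines, the mean Kupffer response and the mean subunit response had a correlation of 0.082 as deposited and 0.15 with arrays centred on their medians, both measured on the same arrays. In the same order, the correlations were 0.35 and 0.59 for the red blood cell markers, 0.11 and 0.34 for the endothelial, -0.28 and -0.15 for the stellate cell, -0.082 and 0.61 for the hepatocyte, 0.13 and 0.50 for the muscle, 0.17 and 0.43 for the cholangiocyte and 0.018 and 0.14 for the fat markers. The part of cell composition in the responses below was not tested. In whole liver, fewer cells of a type and less RNA per cell cannot be told apart.

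Promoter sequence was taken from RefSeq (assembly GRCm38.p6), which held a window from 250 bases before to 50 bases after the start for 64 of the 76 genes. The windows were searched on both strands for 4 short motifs. The NRF1 motif GCGCANGCG, where N is any base, was present in 20 of 64 member windows (31.25%), in 14.8% of the windows of genes tested and in 7.03% of all windows. The YY1 motif AAGATGGC was present in 17.2% of member windows, against 5.40% for genes tested and 3.19% for all windows. The ETS motif CCGGAAG, which GABPA binds, stood at 28.1%, 20.0% and 9.93%, and the ERRA motif CAAGGTCA at 3.12%, 1.48% and 1.76%, in the same order. These are matches of letters and not measured binding. Within the subunits, the NRF1 motif was in 7 of 27 windows of genes that were lower with TAK-875 (25.9%) and in 9 of 25 of those not called (36%). The YY1 motif was in 25.9% and 12% of these windows, the ETS motif in 33.3% and 16%, and the ERRA motif in 0 and 8%. The differences between these shares were not tested. The 150 bases before the start are given below for Sdha and Ndufa9, a pair of subunits that were lower, and for Ndufaf3 and Ndufaf4, the assembly factors that were higher. Each runs 5′ to 3′ on the gene's strand, and capitals mark NRF1 matches. Sdha lies at chr13:74350241-74350390 (minus strand), Ndufa9 at chr6:126849145-126849294 (minus), Ndufaf3 at chr9:108567437-108567586 (minus) and Ndufaf4 at chr4:24897933-24898082 (plus).
Sdha: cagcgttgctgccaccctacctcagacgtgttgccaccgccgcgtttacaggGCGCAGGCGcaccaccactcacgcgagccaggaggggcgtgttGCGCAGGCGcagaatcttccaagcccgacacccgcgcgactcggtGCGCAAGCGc
Ndufa9: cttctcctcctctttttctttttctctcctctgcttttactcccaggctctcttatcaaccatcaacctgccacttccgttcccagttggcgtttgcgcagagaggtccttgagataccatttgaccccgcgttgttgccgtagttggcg
Ndufaf3: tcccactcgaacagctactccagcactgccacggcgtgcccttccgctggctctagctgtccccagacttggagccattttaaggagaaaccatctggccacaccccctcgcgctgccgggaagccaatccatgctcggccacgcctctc
Ndufaf4: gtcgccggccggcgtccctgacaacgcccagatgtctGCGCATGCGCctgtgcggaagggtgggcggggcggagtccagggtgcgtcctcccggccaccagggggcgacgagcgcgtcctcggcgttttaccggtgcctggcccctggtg
The Sdha window holds 3 NRF1 matches, and the Ndufaf4 window holds 2 that overlap, 1 on each strand. Ndufa9 and Ndufaf3 have no match to these letters in the stretch shown. The motif therefore occurs before the start of a gene that was lower and of a gene that was higher.

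The first comparison asked how the members' levels differed between TAK-875 and vehicle mice when each line counts once. A gene's response is the TAK-875 minus vehicle difference of each study pair, averaged within each line and then over the 44 lines, on the log2 scale. It was tested against 0 with limma on the 44 line means, and a gene was called at an adjusted p (Benjamini-Hochberg over the 9093 genes) under 0.05. Errors written as ± are SDs over the 44 lines unless another n is given. Of the 76 members, 35 were lower (46.1%), against 11.9% of all genes, and 2 were higher (2.63%), against 15.3% of all genes. The remaining 39 did not pass. Of the members, 65 lie in the brightest 25% of the genes, where 21.5% of genes were lower and 23.1% higher. Of those 65 members, 33 were lower (50.8%) and 0 higher. The median response was -0.047 over the members, -0.050 over the 62 subunits and 0.0056 over all genes. The changes were small: the median subunit differed by -3.41%, and the lowest subunit, Ndufv3, by -10.2%.

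All 37 called members were of 2 kinds: 32 subunits, each lower, and 5 assembly factors of complex I, of which 3 were lower and 2 higher. The response was negative for 58 of the 62 subunits. The share of subunits called lower was 15 of 30 in complex I, 3 of 4 in complex II, 1 of 6 in complex III, 3 of 9 in complex IV and 10 of 13 in complex V. The median response was -0.054 in complex I, -0.087 in complex II, -0.034 in complexes III and IV, and -0.051 in complex V. The difference between complexes was not tested. With arrays centred on their medians, 36 members were lower and 2 higher, and 32 of the 35 were lower under each of the 3 scalings. Over all genes, higher calls made up 56.3% of calls as deposited, 47.2% with centred arrays and 49.9% after a further quantile normalization. With each study pair counted in place of each line (a replicate block of pairs), 45 members were lower (59.2%, against 15.1% of all genes) and 3 higher. Pairs of the same line share a genotype, and this fit counts them as independent. Without the first strain pair of each line, 23 members were lower (30.3%), against 12.1% of all genes.

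**Figure D1:**
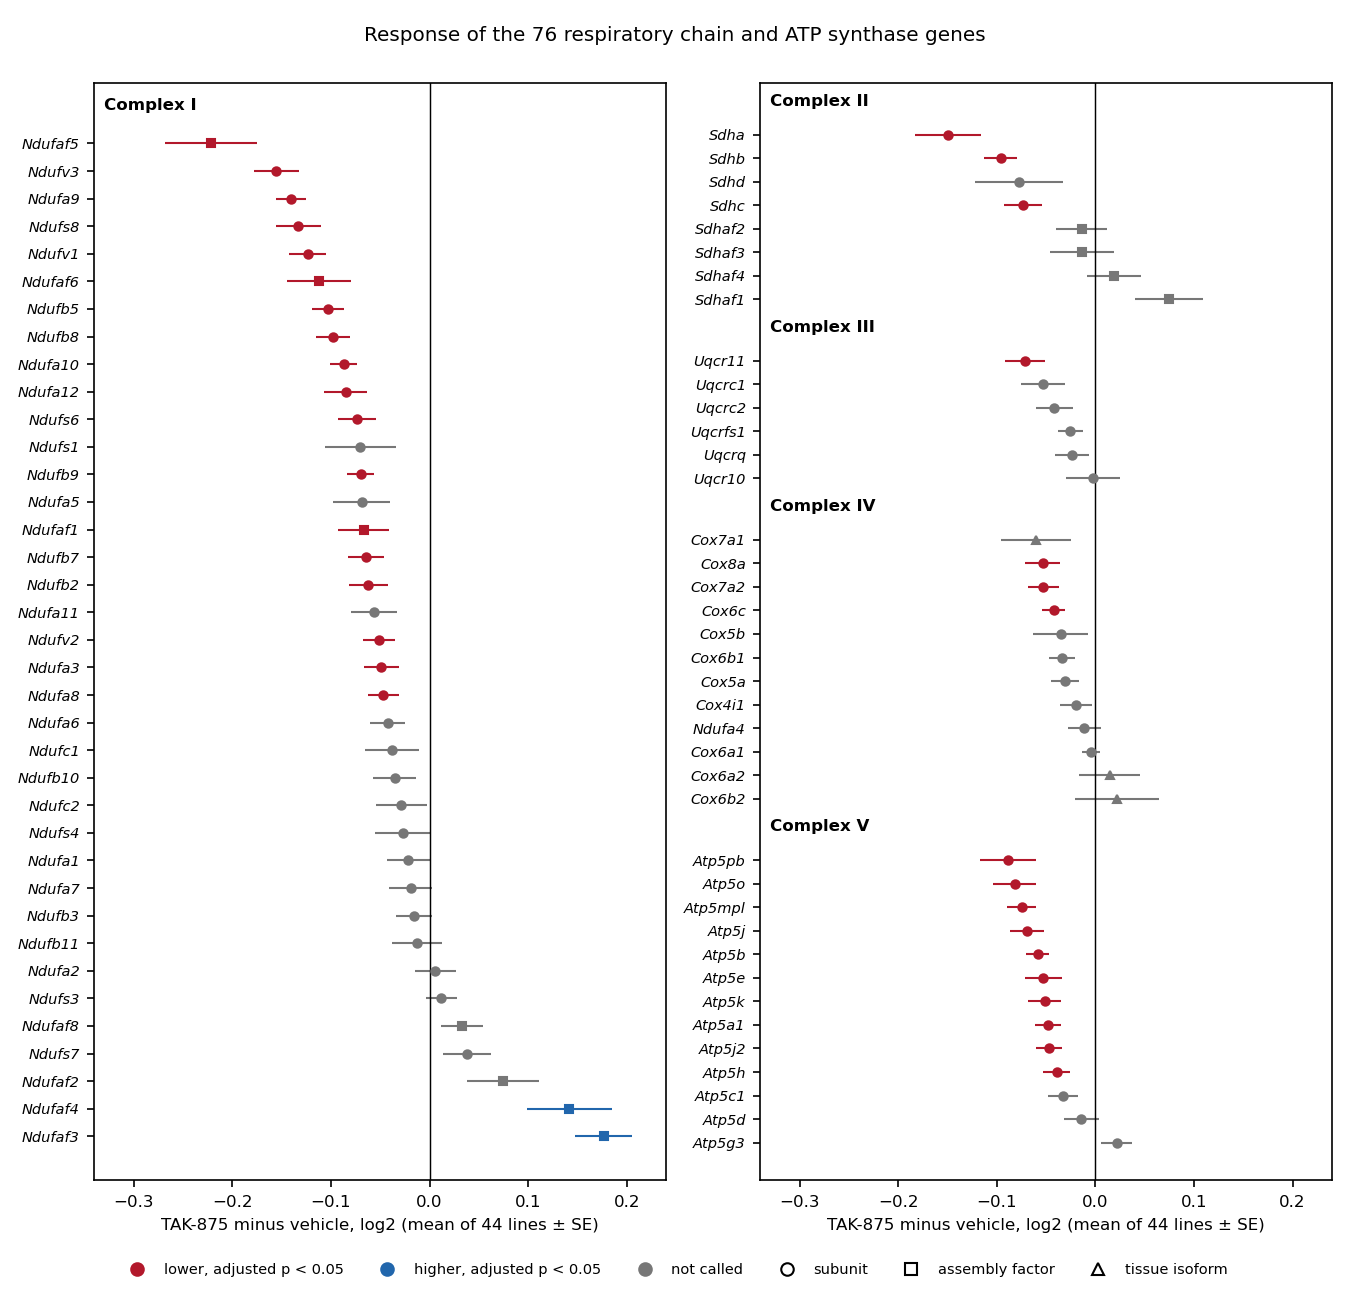
Response to TAK-875 (horizontal axis, log2 TAK-875 minus vehicle, mean of 44 lines) of the 76 genes, grouped by complex and ordered by response. Bars are standard errors from limma, colour marks the call, and circles, squares and triangles mark subunits, assembly factors and tissue isoforms. Most symbols lie left of 0, and the 2 blue squares at the right of complex I are Ndufaf3 and Ndufaf4.

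Complex I has a catalytic core, made of subunits shared with bacteria, and many accessory subunits around it. Of the nuclear core subunits, 3 of 6 were lower, and of the accessory subunits 12 of 24. Ndufv3, an accessory subunit of the NADH-binding arm, ran from 10.19 to 11.53 in the 171 vehicle mice (median 10.95) and from 10.16 to 11.45 in the 171 TAK-875 mice (median 10.78). The ranges overlapped almost wholly, and the TAK-875 mouse was the lower in 141 of 171 pairs. Its response was -0.16 ± 0.15 (SD over 44 lines; limma adjusted p = 3.91e-07), and it was negative in 37 lines. Ndufa9, an accessory subunit at the junction of the membrane and matrix arms, ran from 9.55 to 10.37 with vehicle (median 9.97) and from 9.10 to 10.30 with TAK-875 (median 9.83). Again the groups overlapped, but 147 of 171 pairs were lower. The Ndufa9 response was -0.14 ± 0.089 (SD over 44 lines; limma adjusted p = 5.01e-10), negative in 42 lines, with line means between -0.37 in CC029/Unc and 0.019 in CC032/GeniUnc. In 24 lines every pair was lower for Ndufa9, and in 27 lines for Ndufv3.

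The core subunits split. Ndufs8, an iron-sulfur subunit of the arm that passes electrons to ubiquinone, had a response of -0.13 ± 0.15, and Ndufv1, which binds NADH and FMN, one of -0.12 ± 0.12, with 36 and 38 lines below 0. Ndufv2 was also lower (-0.051). Ndufs1 (-0.070 ± 0.24), Ndufs3 (0.012) and Ndufs7 (0.038) did not pass. Ndufs7 had the highest response of the complex I subunits, with 18 of 44 lines below 0. Of the other accessory subunits called lower, Ndufb5 (-0.10) and Ndufa10 (-0.087) were each negative in 39 lines.

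The assembly factors of complex I build the complex and are not part of the finished enzyme. They went in both directions, with 2 higher, 3 lower and 2 not called. Ndufaf3 and Ndufaf4 act together in an early step that builds the ubiquinone-binding module. Ndufaf3 ran from 6.70 to 8.53 with vehicle (median 7.66) and from 6.28 to 8.69 with TAK-875 (median 7.88), so that the groups overlapped, and the TAK-875 mouse was the lower in 42 of 171 pairs. Its response was 0.18 ± 0.19 (SD over 44 lines; limma adjusted p = 4.11e-06), it was positive in 35 lines, and every pair was higher in 16 lines. Ndufaf4 ran from 5.76 to 8.43 with vehicle (median 7.50) and from 6.54 to 9.25 with TAK-875 (median 7.61). Its response was 0.14 ± 0.29 (limma adjusted p = 0.0103), positive in 32 lines. A second, dimmer Ndufaf4 probe set did not pass, with a response of -0.073 ± 0.52. The Ndufaf4 call was lost when both its probe sets were averaged (0.034, adjusted p = 0.683), without the fourth strain pair (0.11, adjusted p = 0.0872) and without the 19 pairs that hold a poorly correlated array (0.089, adjusted p = 0.0927).

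Ndufaf5, which modifies the core subunit Ndufs7, had the lowest response of all members. It ran from 3.95 to 6.83 with vehicle (median 5.68) and from 3.37 to 6.60 with TAK-875 (median 5.58). The groups overlapped throughout. Its response was -0.22 ± 0.32 (SD over 44 lines; limma adjusted p = 0.000223), with 34 lines below 0 and line means between -0.95 in CC001/Unc and 0.59 in CC065/Unc. Ndufaf6 (-0.11) and Ndufaf1 (-0.067) were also lower, while Ndufaf8 (0.033) and Ndufaf2 (0.075) did not pass. A list of 25 further genes that the name pattern does not take in had 6 higher and 3 lower. It holds assembly factors of complexes I and III to V together with Coq10a. These shares were 24% and 12%, against 15.3% and 11.9% of all genes. Coq10a, a ubiquinone-binding protein on that list, was lower (-0.26 ± 0.30), as was Uqcc2, an assembly factor of complex III (-0.16 ± 0.19).

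Complex II is the succinate dehydrogenase of the citric acid cycle, with a flavoprotein (Sdha), an iron-sulfur protein (Sdhb) and a pair of membrane anchors (Sdhc and Sdhd). Sdha ran from 8.88 to 10.60 with vehicle (median 10.01) and from 8.69 to 10.58 with TAK-875 (median 9.83). The groups overlapped, and 113 of 171 pairs were lower. The Sdha response was -0.15 ± 0.23 (SD over 44 lines; limma adjusted p = 0.000438), with 33 lines below 0, and a second Sdha probe set was also lower (-0.095). Sdhb ran from 11.23 to 12.11 with vehicle (median 11.74) and from 11.05 to 12.03 with TAK-875 (median 11.63), with 123 of 171 pairs lower. The Sdhb response was -0.096 ± 0.11 (limma adjusted p = 1.31e-05), and Sdhc was lower by a similar amount (-0.073 ± 0.13). Sdhd, at -0.078 ± 0.31, did not pass (limma adjusted p = 0.206) and is described by line below. By line, complex II had the lowest mean of the 5 complexes in 27 of 44 lines, complex III in 7, complex I in 4, and complexes IV and V in 3 each. The complex II mean rests on 4 genes and had the widest spread over lines. Its SD was 0.097, against 0.059 for complex I, 0.074 for complex III, 0.059 for complex IV and 0.049 for complex V. The part of this spread in the count of lines was not tested. None of the 4 complex II assembly factors passed. The highest was Sdhaf1, which helps to load iron-sulfur clusters into Sdhb, at 0.075 ± 0.23.

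In complex III, only Uqcr11, a small membrane subunit, was lower in the test over lines. It ran from 10.16 to 11.43 with vehicle (median 11.00) and from 10.20 to 11.42 with TAK-875 (median 10.92), and the groups overlapped fully. The Uqcr11 response was -0.071 ± 0.13 (limma adjusted p = 0.00547), with 32 lines below 0. The core proteins Uqcrc1 (-0.053 ± 0.15) and Uqcrc2 (-0.042 ± 0.12), the Rieske iron-sulfur protein Uqcrfs1 (-0.025) and the small subunit Uqcr10 (-0.0026) did not pass. The Uqcr10 value depended on the probe set: its dimmer sets gave -0.15 (adjusted p = 0.00128) and -0.076 (adjusted p = 0.0575), and the mean of all 3 gave -0.075 (adjusted p = 0.0197, limma). The count in complex III is the least settled of the 5: it was 4 of 6 with pairs in place of lines and 2 of 6 with centred arrays. Cyc1, the cytochrome c1 of this complex, which the name pattern does not take in, was lower (-0.057).

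In complex IV, 3 of 9 subunits were lower: Cox8a (-0.054 ± 0.11), Cox7a2 (-0.053 ± 0.096) and Cox6c (-0.042 ± 0.067). Cox8a ran from 10.24 to 11.13 with vehicle (median 10.63) and from 9.96 to 11.20 with TAK-875 (median 10.59), an overlap of nearly the whole range. Ndufa4, a complex IV subunit despite its name, had a response of -0.011, and Cox6a1 had -0.0046 ± 0.048, the smallest spread over lines among the members. The Cox8a and Cox7a2 calls were lost with the mean of all probe sets of a gene and without the first strain pair of each line.

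The tissue isoforms of complex IV are textbook forms of heart and skeletal muscle (Cox6a2, Cox7a1) and of testis (Cox6b2). None passed: the responses were 0.014 ± 0.20, -0.061 ± 0.23 and 0.022 ± 0.28. Their common forms stood at -0.0046 for Cox6a1, -0.053 for Cox7a2 and -0.034 for Cox6b1, of which Cox7a2 alone was called. Cox6a2 ran from 3.57 to 5.62 with vehicle and from 3.65 to 6.00 with TAK-875, and Cox7a1 from 2.74 to 5.69 and from 2.68 to 5.30. The 6 muscle markers averaged 3.29 to 5.78 in vehicle arrays and 3.53 to 7.52 in TAK-875 arrays, and 1 of the 6 (Mylpf) was higher. Their part in the muscle isoform values was not tested.

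In complex V, 10 of 13 subunits were lower. Of the catalytic F1 head, 3 of 5 subunits were lower, and of the membrane part and stalk 7 of 8. Atp5pb, subunit b of the outer stalk, ran from 9.52 to 10.96 with vehicle (median 10.55) and from 9.60 to 10.86 with TAK-875 (median 10.44). The groups overlapped, and 103 of 171 pairs were lower. The Atp5pb response was -0.089 ± 0.19 (limma adjusted p = 0.0146), with 34 lines below 0. Atp5o, the oligomycin sensitivity protein that joins stalk and head, had -0.082 ± 0.14, and Atp5mpl, a small membrane subunit, -0.075 ± 0.086 with 37 lines below 0. The F1 subunits Atp5b (beta, -0.059 ± 0.070, 37 lines below 0) and Atp5a1 (alpha, -0.049 ± 0.075, 33 lines below 0) hold the catalytic sites. Atp5g3, a gene for the proton-carrying c subunit, was the highest at 0.022 ± 0.10 and did not pass.

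The other genes of the pathway, from lists outside the members, did not all go the way of the subunits. Over all genes, 11.9% were lower and 15.3% higher. The regulators listed last (6.25% lower, 12.5% higher) lay near those shares. In the citric acid cycle, 6 of 14 genes were lower and 2 higher: Pdhb of pyruvate dehydrogenase had -0.21 ± 0.19 and Sucla2 of succinyl-CoA synthetase -0.15 ± 0.35. The Sucla2 call was lost without the second, the third or the fourth strain pair (-0.127 to -0.125, limma adjusted p = 0.0929 to 0.127). Among enzymes that feed electrons to ubiquinone, 3 of 7 were lower and 1 higher. Prodh, the proline dehydrogenase, fell by 0.51 (SD 0.37 over 44 lines, 40 lines below 0), and Gpd2, the mitochondrial glycerol phosphate dehydrogenase, fell by 0.16. Of the cytochrome c and ubiquinone genes 3 of 10 were lower and 2 higher, with Coq8a at -0.23 ± 0.35 and Pdss2 at -0.17 ± 0.20, both of ubiquinone synthesis. Of the genes of ATP export and proton leak, 1 of 8 was lower (Slc25a4, an ADP/ATP carrier, -0.12 ± 0.30), and Atpif1, the inhibitor of the ATP synthase, had 0.057 ± 0.22 and did not pass. The Slc25a4 call was lost without the first (-0.11), the second (-0.14) or the third strain pair (-0.061, limma adjusted p = 0.357) and once pairs with a poorly correlated array were dropped (-0.087). Of 16 regulators of mitochondrial gene expression, 2 were higher, the mitochondrial DNA helicase Twnk (0.17 ± 0.25) and the coactivator Pprc1 (0.16 ± 0.43), and 1 was lower, the mitochondrial RNA polymerase Polrmt (-0.11). The Pprc1 call was lost with centred arrays (0.15, limma adjusted p = 0.0632), after a further quantile normalization (0.15), without the first (0.15), the second (0.19) or the fourth strain pair (0.084, adjusted p = 0.445) and once pairs with a poorly correlated array were dropped (0.079, adjusted p = 0.403). Nrf1 (0.058), Gabpa (-0.034), Esrra (-0.0027) and Yy1 (0.00020), whose motifs were searched above, did not pass.

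The second question was how the response varied over the lines. The mean response of the 62 subunits averaged -0.053 ± 0.055 (SD over 44 lines). It ran from -0.18 in CC007/Unc to 0.072 in CC008/GeniUnc, with 39 lines below 0 and 128 of 171 pairs below 0. In CC007/Unc 52 of 62 subunits were lower, and in CC058/Unc 56 of 62, while in CC008/GeniUnc 14 were. All pairs were below 0 in 14 lines and above 0 in 1 line (CC065/Unc). All 5 complexes were below 0 in 26 lines and above 0 in 2. The line values moved with the scaling: with arrays centred on their medians, 31 lines were below 0, 12 lines changed sign, and CC033/GeniUnc went from -0.11 to -0.36. In that line the TAK-875 arrays had medians 0.24 above their vehicle arrays on average. The highest line rested on 1 pair: in CC008/GeniUnc the 4 pairs ran from -0.085 to 0.40.

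**Figure D2:**
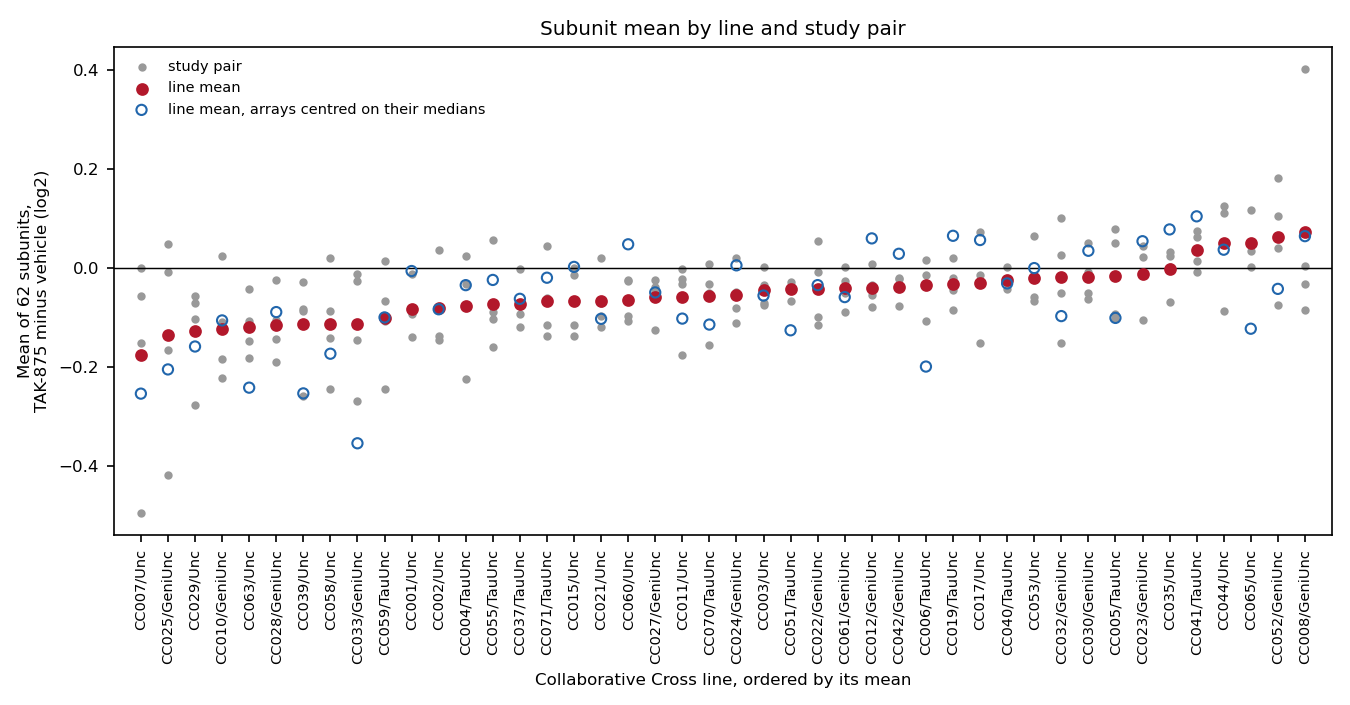
Mean of the 62 subunits (vertical axis, log2 TAK-875 minus vehicle) in each of the 44 lines, ordered by line mean. Grey points are study pairs, red points line means and open blue circles line means after centring arrays on their medians. The red points run from -0.18 to 0.072 with 39 below 0, and blue and red circles differ most in CC033/GeniUnc.

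The subunits moved together across lines more than genes in general. Over the 44 lines, the median correlation between subunit pairs was 0.23 as deposited and 0.55 with centred arrays, against 0.028 and 0.033 over all gene pairs. It was 0.21 for subunits of the same complex and 0.24 for those of different complexes as deposited. All values come from the same arrays and share their scaling. The comparison was not limited to bright genes, among which most members lie. Centring also raised the correlation of the mean subunit response with the hepatocyte markers (-0.082 to 0.61) and the muscle markers (0.13 to 0.50). Against the other subunits, the lowest median correlations were those of Ndufs1 (-0.26), Sdha (-0.22), Atp5pb (-0.16), Ndufa1 (-0.13) and Uqcrc2 (-0.12). The non-member genes most like the mean member response over the 44 lines, on centred arrays, were Cops9 (r = 0.90), Cst3 (0.88) and Mrps7 (0.88). As deposited these stood at 0.69, 0.56 and 0.66.

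The sets that ran against each other are seen best in a pair of lines, CC005/TauUnc and CC041/TauUnc, which were picked after their values were seen. In CC005/TauUnc, Atp5pb was 9.59, 9.85, 9.75 and 10.03 in the vehicle mice and 10.32, 10.50, 10.38 and 10.29 in their TAK-875 partners. In CC041/TauUnc, it was 10.52, 10.91, 10.80 and 10.68 with vehicle and 9.81, 10.45, 10.02 and 10.60 with TAK-875. TAK-875 mice were thus above every vehicle mouse in the first line and below their own partners in the second. The mean differences were 0.56 ± 0.21 and -0.51 ± 0.31 (SD, n = 4 pairs each). Sdha also had opposite means, at 0.44 ± 0.41 and -0.53 ± 0.21, with all 4 pairs of each line in the direction of its mean. For Ndufs1 the means were 0.69 ± 0.57 and -0.42 ± 0.27, and 1 pair of CC005/TauUnc was slightly below 0 (-0.036). Uqcrc1 went the other way, at -0.41 ± 0.18 and 0.33 ± 0.14. The limma F test between all lines, given below, called neither Sdha (adjusted p = 0.0640) nor Ndufs1 (adjusted p = 0.169). For Atp5pb and Sdha the line means lay nearer to each other with TAK-875 than with vehicle, and the lowest vehicle line means of Sdha, Atp5pb and Uqcrc2 among all 44 lines were those of CC005/TauUnc. Of the 62 subunits, 16 were above 0 in CC005/TauUnc and below 0 in CC041/TauUnc, 32 were the reverse, and 14 had 1 sign in both. The correlation between the lines, which share no arrays, was -0.80 across the 62 subunits and -0.62 across all 9093 genes.

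**Figure D3:**
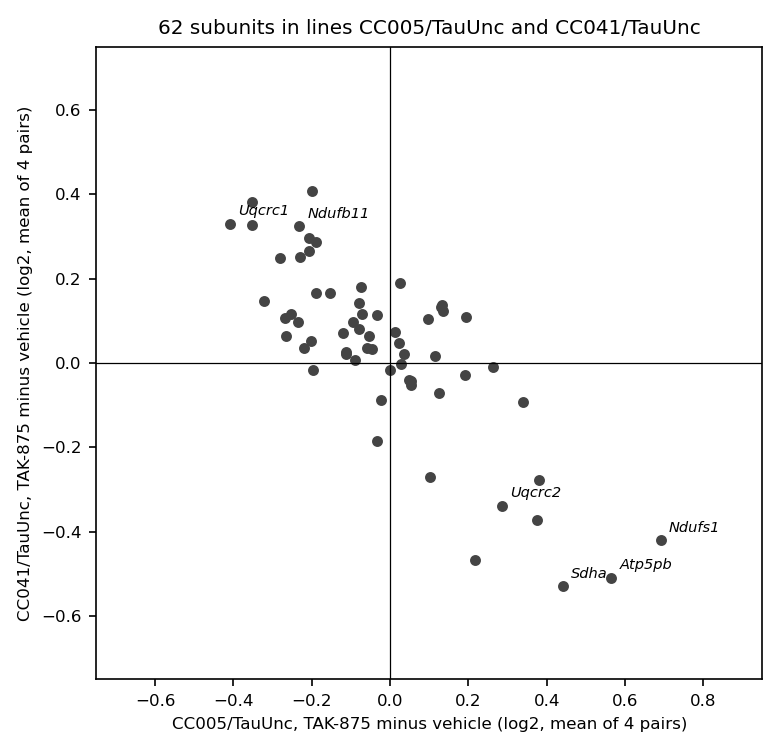
Response of each of the 62 subunits (points, mean of 4 study pairs, log2 TAK-875 minus vehicle) in CC005/TauUnc (horizontal axis) and CC041/TauUnc (vertical axis). The points fall from upper left, with Uqcrc1 and Ndufb11, to lower right, with Sdha, Atp5pb and Ndufs1 (r = -0.80).

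The same order runs through all lines. The first principal component of the 44 line responses took 33.1% of the variance of the 62 subunits and 24.6% of that of all genes, and the line scores of these components had a correlation of 0.93 (n = 44 lines, the same arrays). CC041/TauUnc was at one end, and CC025/GeniUnc and CC005/TauUnc were at the other. The pattern is therefore not particular to the members. Plate, scan date and RNA integrity of each array were not used here, and their part in it was not tested. With this component as a covariate, 41 members were lower (53.95%, against 15.1% of all genes) and 2 higher. The covariate was centred, so it left each mean response unchanged and altered only the error. This fit therefore cannot show the component's part in the responses. Without CC005/TauUnc, CC025/GeniUnc and CC041/TauUnc, 38 members were lower (50%, against 13.3% of all genes) and 2 higher. These alternatives were chosen after seeing the data.

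A moderated F test over the 171 pair differences asked, gene by gene, whether the response differed between lines. It called 16 of 76 members (21.1%), against 16.2% of all genes, so in this fit the members' share is near the background. The 16 are Sdhd, Ndufb11, Uqcrc1, Ndufb2, Ndufc1, Atp5pb, Atp5g3, Uqcr10, Ndufv3, Ndufa1, Uqcr11, Cox4i1, Ndufa2, Atp5d, Ndufa3 and Sdhb. The count fell to between 2 and 13 when 1 strain pair was left out of each line, where 1.42% to 7.59% of all genes were called. It was 7 (9.21%) without CC005/TauUnc, CC025/GeniUnc and CC041/TauUnc, against 3.35% of all genes, and 25 (32.9%) with centred arrays, against 18.9%.

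Sdhd, the membrane anchor that helps to bind ubiquinone, had the largest spread between lines of all members, an SD of 0.26 after the sampling variance was taken off (limma F test, adjusted p = 9.07e-06). It was called in all 13 alternatives that could be run for it, with adjusted p-values from 5.36e-07 to 0.0311. In CC061/GeniUnc, Sdhd was 10.14 to 10.29 in the 4 vehicle mice and 9.36 to 9.72 in the 4 TAK-875 mice, a difference of -0.66 ± 0.093 (SD, n = 4 pairs). In CC012/GeniUnc it was 9.91 to 10.18 and 9.10 to 9.53 (-0.66 ± 0.11), and in CC070/TauUnc 9.53 to 9.87 and 9.05 to 9.28 (-0.55 ± 0.077). In these 3 lines every TAK-875 mouse was below every vehicle mouse. The same held in CC030/GeniUnc, CC007/Unc, CC063/Unc, CC021/Unc and CC042/GeniUnc. CC030/GeniUnc had the lowest mean, -0.73 ± 0.34, followed by CC007/Unc at -0.68 ± 0.51.

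At the other end, Sdhd was higher in every pair of CC005/TauUnc (0.38 ± 0.27) and of CC008/GeniUnc (0.56 ± 0.82), where 1 pair differed by 1.79 and the other 3 by 0.054 to 0.24. All pairs were lower in 11 lines and higher in 4. Every TAK-875 mouse was above every vehicle mouse in CC005/TauUnc and CC040/TauUnc. The line means ran without a wide break from low to high, the largest step being the 0.18 below CC008/GeniUnc. With centred arrays the 7 lowest lines kept values between -0.76 and -0.54. The Sdhd response followed the other subunits little, with a median correlation of 0.039 with them over lines. The genes most like Sdhd over the 44 lines were Phf20l1 (r = 0.83), C1rb (0.82) and Pmpcb (0.79), a choice made after its values were seen. The only Sdhd probe set is of the class that can bind unrelated transcripts, and its part in this result was not tested.

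**Figure D4:**
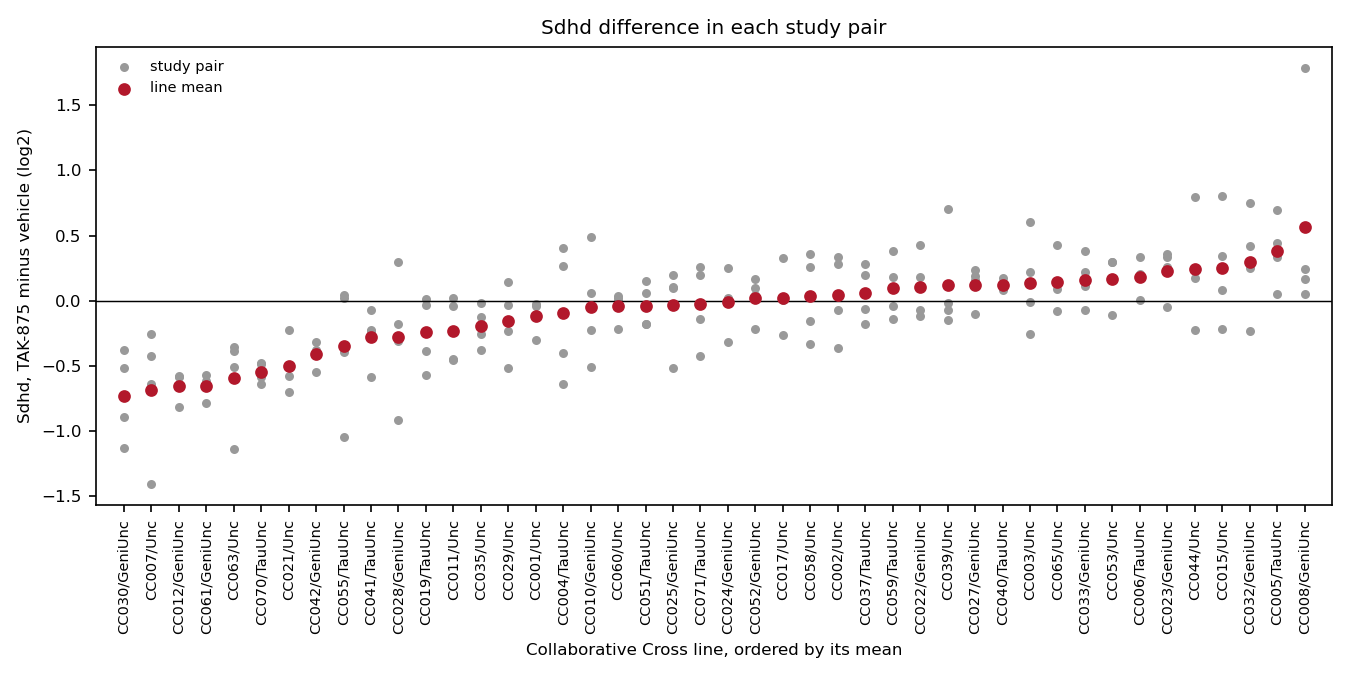
Sdhd difference in each study pair (grey, log2 TAK-875 minus vehicle) and its mean in each of the 44 lines (red), ordered by line mean. Line means run from -0.73 in CC030/GeniUnc to 0.56 in CC008/GeniUnc, where 1 pair at 1.79 stands above the others.

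Among the other members called by this test, the lines at the ends differed in sign, as they also did for members not called. Uqcrc1 ran from -0.41 in CC005/TauUnc to 0.33 in CC041/TauUnc (limma F test, adjusted p = 0.00148), and Atp5pb from -0.51 to 0.56 in the reverse order of the same lines (adjusted p = 0.00487). Uqcr10, whose mean response was near 0, ran from -0.29 in CC059/TauUnc to 0.64 in CC052/GeniUnc (adjusted p = 0.00679), and Atp5g3 from -0.20 in CC039/Unc to 0.34 in CC052/GeniUnc (adjusted p = 0.00622). Ndufv3 ran from -0.48 in CC029/Unc to 0.30 in CC015/Unc (adjusted p = 0.00823). Ndufb11, singled out after its values were seen, ran from -0.46 to 0.38 (adjusted p = 1.79e-05). The Ndufb11 probe set used is of the same class as that of Sdhd, and its SD over lines was 0.17. Other Ndufb11 probe sets, at -0.040 ± 0.069 and -0.071 ± 0.13, varied less over lines and were lower in the test over lines. The part of the probe set in the Ndufb11 result was not tested. Ndufa9 was not called (adjusted p = 0.313). Nor were Ndufaf5 (-0.95 to 0.59, adjusted p = 0.267) and Sdha (-0.53 to 0.44, adjusted p = 0.0640), although their line means ran widely.

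The third question was how the members' levels differed between lines without treatment. The F test over the 171 vehicle mice called 75 of 76 members (98.7%), against 98% of all genes, so that the call separates few genes. The levels are array signals, and differences between the lines in the sequence under the probes were not examined. The size of the spread was more informative. The largest SDs between lines in vehicle mice were those of Cox6b2 (1.05), Ndufaf5 (0.44), Ndufaf2 (0.43), Cox7a1 (0.35) and Ndufaf4 (0.33), none of them a common subunit. Cox6a1 had the smallest, at 0.054.

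Cox6b2 had the widest break between lines of all members. Its vehicle line means ran from 3.81 in CC041/TauUnc to 7.83 in CC011/Unc with a median line at 4.33, and no line mean lay between 5.97 (CC004/TauUnc) and 6.80 (CC028/GeniUnc). The 5 lines above the break were CC028/GeniUnc, CC065/Unc (6.96), CC042/GeniUnc (7.65), CC017/Unc (7.69) and CC011/Unc (7.83), and 39 lines lay below it. The vehicle mice of CC017/Unc ran from 7.51 to 7.90 and its TAK-875 mice from 7.62 to 7.98. In CC011/Unc they ran from 7.35 to 8.09 and from 7.16 to 7.92, so the high level was seen at both doses. The neighbours CC042/GeniUnc, CC017/Unc and CC011/Unc overlapped in their mice. Mice also overlapped across the break, which holds for vehicle line means only. Vehicle mice ran from 5.15 to 6.42 in CC004/TauUnc and from 6.26 to 7.36 in CC028/GeniUnc. The TAK-875 mean of CC004/TauUnc was 6.64. Cox6b1, the common form, varied far less, from 11.45 to 12.12 between line means.

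**Figure D5:**
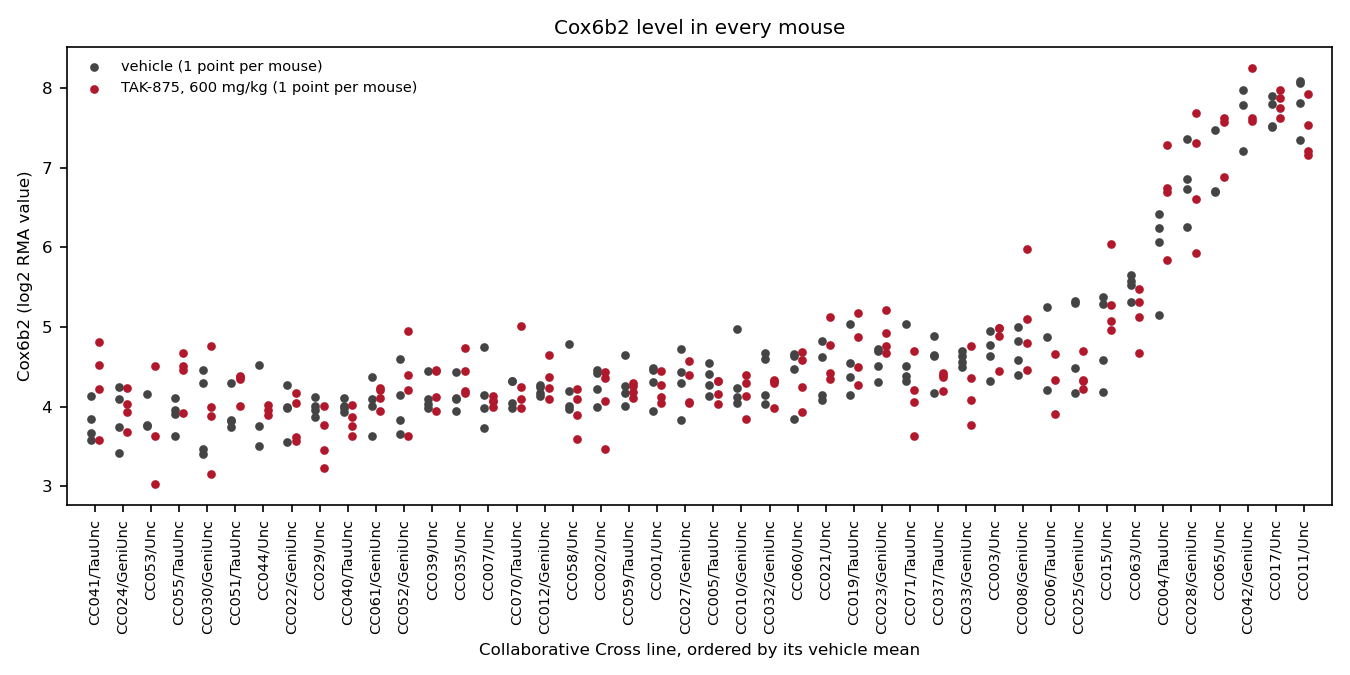
Cox6b2 level (vertical axis, log2 RMA value) in every vehicle mouse (dark) and TAK-875 mouse (red) of the 44 lines, ordered by vehicle mean. The 5 lines at the right have vehicle means of 6.80 to 7.83, and the vehicle means of the other 39 lie at or below 5.97.

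Ndufaf2, a chaperone of late complex I assembly, ran from 5.04 in CC065/Unc to 7.18 in CC002/Unc, with 2 lines at or below 5.43 and the other 42 at or above 5.96. Ndufaf5 ran from 4.64 in CC071/TauUnc to 6.64 in CC060/Unc, and Ndufaf4 from 6.70 in CC052/GeniUnc to 8.16 in CC003/Unc. For Atp5pb, CC005/TauUnc stood alone at 9.81 with all 43 other lines at or above 10.25, and for Sdha the same line stood at 9.22 with the others at or above 9.58.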

How the data were processed

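Liver RNA of 342 mice was measured on Affymetrix arrays, 1 mouse per array. The deposited values are on the log2 scale. Per the submitters' processing notes, the authors used RMA and Affymetrix Power Tools, whose versions these sources do not give. Of 16397 probe sets, 13083 name 1 gene, 261 several and 3053 none, from the platform's gene table with symbols checked against RefSeq (GRCm38.p6). Each of 9093 genes was represented by its brightest probe set. Of the members, 29 have several probe sets. For the 13 of these called lower, every probe set had a negative response, and 1 member (Ndufa7) had probe sets called in both directions. Some members not called had another probe set that was lower, among them Cox5a (-0.065), Ndufc1 (-0.081), Ndufb11 and Uqcr10. With all probe sets of a gene averaged, 19 complex I subunits were lower in place of 15, and 1 complex IV subunit in place of 3. limma 3.58.1 (R 4.3.3) was run with a variance trend and Benjamini-Hochberg adjustment over all genes.

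The members and lists were chosen with earlier results of these data known. The genes named are, per complex, the 3 lowest and the 1 highest response, all members called higher, the 5 largest spreads of response and of vehicle level between lines, the complex IV isoforms, the 2 largest responses of each other list, and the 3 genes most like the members; any other gene was picked with its values known. The labels say that vehicle and TAK-875 mice were treated in pairs, so differences were taken within pairs. Paired arrays had a mean correlation of 0.036 in their deviations from the group means, against -0.012 for unpaired ones. Plates, scan batches and RNA integrity were not used here. On simulated data for the mean response over 9093 genes, 46 of 50 genes lowered by 0.2 were recovered and 19 of 50 lowered by 0.1, with 6 calls among 8893 unchanged genes. For a response that differs between lines by an SD of 0.2, 73 of 200 were recovered. In the measured study pairs, array medians differed by -0.38 to 0.63 (TAK-875 minus vehicle). Whether the counts recovered and the 6 calls hold for such arrays was not tested.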

Additional observations from a re-analysis of the deposited data

Results flagged for a closer look

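Within lines of 4 pairs, 5 of 78 sets of pair differences (39 lines, for the subunit mean and for Sdhd) held 1 pair far from the others by Dixon's criterion, and chance gives about 1 in 20. For the subunit mean, strain pair 1 of CC011/Unc was at -0.175, with the others from -0.032 to -0.0030, and its TAK-875 array had a median 0.39 above its partner's. For Sdhd, strain pair 4 of CC008/GeniUnc was at 1.79 (others 0.054 to 0.24), strain pair 1 of CC025/GeniUnc at -0.52 (others 0.094 to 0.20), strain pair 1 of CC039/Unc at 0.71 (others -0.15 to -0.016) and strain pair 1 of CC060/Unc at -0.22 (others -0.00081 to 0.034). In the CC039/Unc pair the TAK-875 array had a median 0.63 above its partner's. The part of these array differences was not tested.

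The response differed between lines, by limma's F test over pair differences, for 8 of the members named by the rule. The same test called 16 of all 76 members (21.05%) and 16.2% of all genes. The rule picks genes partly by their spread of response between lines, so the count of 8 cannot be set against the share of all genes. The adjusted p-values were 0.00823 for Ndufv3, 0.0445 for Sdhb, 9.07e-06 for Sdhd, 0.0131 for Uqcr11, 0.00148 for Uqcrc1, 0.00679 for Uqcr10, 0.00487 for Atp5pb and 0.00622 for Atp5g3. Over the alternatives, the adjusted p stayed under 0.05 in 13 of 13 for Sdhd, 12 of 14 for Uqcrc1, 11 of 14 for Ndufv3, Uqcr10 and Atp5g3, 9 of 14 for Uqcr11 and Atp5pb, and 6 of 14 for Sdhb.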

How the results depend on the processing

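Of 588 values of the 37 named genes under 16 alternatives, 538 kept their direction and their side of the threshold, and 23 genes did so throughout. Members lower numbered 23 to 40 when 1 strain pair was left out of each line and 31 to 45 under the other alternatives, and 20 members were lower under every alternative other than the one that drops 6 members for their probe class. Members higher numbered 1 to 3 with a strain pair left out, 1 with all probe sets averaged and with centred arrays without poorly correlated pairs, and 4 without poorly correlated pairs, where 1 subunit was higher. Subunits lower numbered 21 to 38 with a strain pair left out. In complex III, 2 subunits were lower with the mean of all probe sets, centred arrays, a further quantile normalization, centred arrays without poorly correlated pairs, and without lines CC005/TauUnc, CC025/GeniUnc and CC041/TauUnc; 3 with the first component as a covariate; 4 with the study pair as a replicate block and with no replicate block; and 1 to 2 with a strain pair left out. In complex IV, 1 was lower with the mean of all probe sets, 5 with and without the replicate block of pairs, and 1 to 5 with a strain pair left out. With and without this block, 45 members were lower and 3 higher. Sdhd (-0.082), Sdhaf1 (0.077), Uqcrc1, Uqcrc2 and Cox6b1 then also passed, and no call of a named gene was lost. Both fits count the responses of mice of the same line as independent. Members whose response differs between lines numbered 25 with centred arrays, 7 without the 3 lines and 2 to 13 with a strain pair left out. Leaving out a strain pair also leaves fewer pairs, and the cause of these changes was not tested. With a strain pair left out, Uqcr10 ran from -0.0121 to 0.0106, above 0 without the first (0.0106) and the second (0.0027). The 3 alternatives with combined centring, without the 3 lines or with the covariate were added after seeing the data. Signal over background was not used here, so dim genes such as the tissue isoforms have no detection call.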
